A study of Mus musculus with 9 samples.

Results

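Lhx2, Emx1, Emx2, Otx1, Otx2, Pax6, Six3, En1 and En2 are 9 homeobox transcription factors that mark regions of the embryonic brain along its length, from forebrain to hindbrain. They were chosen by name, for this regional role, from the 46517 genes counted in the libraries, and all 9 were among the 17947 genes with enough reads to be tested. The 9 libraries are bulk RNA sequencing of mouse glioblastoma tissue on a mixed strain background, with 3 samples from each of 3 models named for their Cre line: Synapsin-cre, Nestin-creERT2 and NG2-creERTM. The series set these models side by side as tumours of different cells of origin. The Synapsin promoter is active in neurons, the Nestin promoter in neural stem and progenitor cells, and the NG2 (Cspg4) promoter in oligodendrocyte precursors and pericytes. The creERT2 and creERTM forms act after tamoxifen. The tumour-driving alleles, the site of each tumour, the tamoxifen schedule, and the age and sex of the animals are not given in the sources used here. Replicates are numbered in the order of deposition. The labels do not tie them to separate mice, and each p-value here therefore rests on sample-to-sample spread that could be partly technical.

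In the embryo, Six3, Otx1, Otx2, Emx1, Emx2, Lhx2 and Pax6 act in the forebrain, where Six3 works at its front end and in the eye field and the Emx genes, Lhx2 and Pax6 pattern the cortex. Otx2 also defines the midbrain, and its caudal limit helps to place the isthmic organiser, the signalling centre between midbrain and hindbrain. En1 and En2 are switched on around that centre, in the midbrain and anterior hindbrain, and their protein products are needed for midbrain dopaminergic neurons and the cerebellum.

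The windows before the start sites of Lhx2, Pax6 and En1 are shown because the differences described below turn on these genes. They come from RefSeq on GRCm38.p6, in which 7 of the 9 members (not Otx1 and En2) had a window of 250 bases before to 50 after a start, and they are printed as far as the first base that GENCODE counts as exon. Each lies on the plus strand, and capitals mark CpG dinucleotides, the sites at which DNA can be methylated. The first covers chr2:38339031-38339280, the second chr2:105668646-105668895 and the third chr1:120602237-120602417.

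Lhx2: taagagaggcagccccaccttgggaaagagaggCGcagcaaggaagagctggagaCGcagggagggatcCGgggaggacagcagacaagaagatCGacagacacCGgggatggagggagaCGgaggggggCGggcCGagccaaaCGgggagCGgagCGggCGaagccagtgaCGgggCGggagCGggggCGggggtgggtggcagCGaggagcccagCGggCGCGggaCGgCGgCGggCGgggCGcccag
Pax6: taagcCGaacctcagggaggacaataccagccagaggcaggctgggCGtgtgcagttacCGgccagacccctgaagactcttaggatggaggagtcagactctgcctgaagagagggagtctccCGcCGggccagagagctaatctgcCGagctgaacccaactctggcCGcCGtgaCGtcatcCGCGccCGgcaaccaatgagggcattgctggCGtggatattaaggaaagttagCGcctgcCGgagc
En1: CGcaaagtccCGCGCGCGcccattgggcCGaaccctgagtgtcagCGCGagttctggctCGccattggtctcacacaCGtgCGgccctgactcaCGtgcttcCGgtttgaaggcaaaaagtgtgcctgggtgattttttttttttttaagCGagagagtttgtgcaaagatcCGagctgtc

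Over the whole window the Lhx2 start held 34 CpG, more than 92.3% of the 32851 windows in the table. The Pax6 window held 18 and the En1 window 23, more than 70.3% and 78.5% of windows, against a median of 7. Both strands were searched for TAATTA, the core that many homeodomain proteins bind, for TAATCC, the core bound by Otx-type proteins, and for TATAAA, the TATA box. The windows printed here held none of these, and 5.29%, 7.06% and 13.62% of all windows held them. No methylation or binding was measured in these samples.

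The libraries held 23557398 to 41099967 counts in genes (median 34742585), and these counts were scaled by library total and TMM size factor to CPM, the usual depth-corrected unit. A gene with 3 or fewer counts was taken as not detected, and this is the floor meant below. Synapsin-cre replicate 1 stood apart. Its 10 proliferation markers summed to 144 CPM against 1321 to 2878 in the other 8 libraries, its 12 pan-neuronal markers to 5723 CPM against 493 to 2031, and its Nes level was 55.2 CPM against 294 to 688. Many results that rest on it are given with and without it, and the medians of the wider regional lists with it only. Sex-linked RNA differed between Synapsin-cre and Nestin-creERT2 and was mixed in NG2-creERTM. Xist was at 777 to 1808 CPM in the 3 Nestin-creERT2 libraries and in NG2-creERTM replicate 2 (1320 CPM), and at 0.988 to 1.28 CPM in the other 5 libraries. The Y-linked Ddx3y was at 59.2 to 66.8 CPM in the 3 Synapsin-cre libraries and at 0 to 0.0714 CPM in Nestin-creERT2, and at 5.54, 0.0523 and 71.6 CPM in the NG2-creERTM samples, of which replicate 1 was low in Xist as well. For Synapsin-cre and Nestin-creERT2, model and sex therefore cannot be told apart.

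The members differed in how widely they were read. Lhx2, Otx1, Pax6, En1 and En2 were above the floor in all 9 libraries, Emx2 and Six3 in 8, Emx1 in 6 and Otx2 in 3. Each library held 7 to 9 of the 9 genes above the floor, so forebrain genes and the En genes were read in every tumour sample. Per kilobase of exon, over the 9 libraries, En2 was highest at 6.61 ± 3.42 CPM per kb (SD, n = 9), then En1 at 5.37 ± 2.84 and Lhx2 at 4.87 ± 3.02. Pax6 followed at 2.12 ± 2.40, Six3 at 1.36 ± 1.24 and Emx2 at 1.16 ± 1.16. Otx2 stood at 0.454 ± 1.12, Otx1 at 0.345 ± 0.264 and Emx1 at 0.323 ± 0.522. Neighbours in this order differed by less than the SD of either gene, except Lhx2 and Pax6, whose gap was below the SD of Lhx2 and above that of Pax6. The order of the first 3 genes in the Nestin-creERT2 samples was En2 at 8.72 ± 2.80, Lhx2 at 8.43 ± 1.73 and En1 at 7.89 ± 0.451 CPM per kb (SD, n = 3 each), again within their spread. In the NG2-creERTM samples Lhx2, at 2.26 ± 0.364, stood below En2 at 6.93 ± 2.95 and En1 at 5.08 ± 2.70. In bulk tissue, fewer cells of a kind and less RNA per cell cannot be told apart.

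En1 and En2 together made up 42.2 to 70.3% of the summed per-kilobase level of the 9 genes in 8 of the libraries. In Synapsin-cre replicate 1 they made up 1.46%, and Lhx2 with Pax6 made up 77%. In 7 of the other libraries Lhx2 with Pax6 made up 16.2 to 32.2%, and more in Nestin-creERT2 replicate 3 alone, where Lhx2 gave 35.5%. The summed level itself was 18 CPM per kb in Synapsin-cre replicate 1, inside the range of 11.4 to 35.7 in the others, so that library differed in which factors it held more than in how much.

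**Figure D1:**
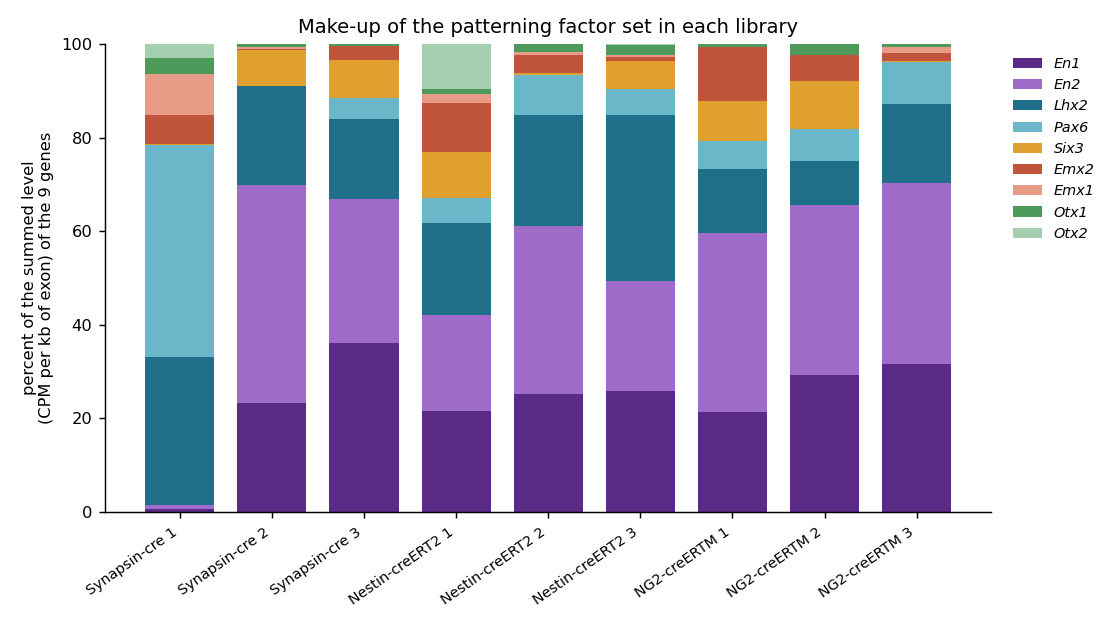
Share of each gene in the summed level (CPM per kb of exon) of the 9 patterning factors, as percent, 1 stacked bar for each library. En1 and En2 fill 42.2 to 70.3% of every bar but that of Synapsin-cre replicate 1, where they fill 1.46%.

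Lhx2, a LIM homeobox factor that cortical and hippocampal progenitors need, was the member that followed the models most closely. It stood at 30.9, 34.8 and 45.5 CPM in Nestin-creERT2 replicates 1 to 3, at 25.1, 15.4 and 11.2 CPM in the Synapsin-cre samples, and at 9.70, 11.6 and 8.43 CPM in the NG2-creERTM samples. All 3 Nestin-creERT2 libraries lay above the other 6, while the Synapsin-cre and NG2-creERTM ranges overlapped. The means were 37.0 ± 7.61, 17.2 ± 7.08 and 9.91 ± 1.60 CPM (SD, n = 3 each). Model accounted for 85.2% of the variance of its log2 CPM, against a median of 28.8% over all genes tested. Of the 9 members only Lhx2 had all Nestin-creERT2 libraries above the rest, an arrangement that 2.42% of all genes tested showed.

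Lhx2 was lower in NG2-creERTM than in Nestin-creERT2 by a log2 fold change of -1.90 ± 0.39 (SE, 95% interval -2.78 to -1.02), but in edgeR's quasi-likelihood fit of all 9 libraries this did not pass (edgeR, Benjamini-Hochberg adjusted p = 0.239). In the fit of these 2 models alone the same difference, -1.90 ± 0.30, passed (edgeR adjusted p = 0.0397), in a comparison that called 1.39% of 17108 genes. It also passed without Synapsin-cre replicate 1 (edgeR adjusted p = 0.0460), in DESeq2 (adjusted p = 0.000205) and in limma voom with sample quality weights (adjusted p = 0.0392), and did not in limma voom without weights (adjusted p = 0.231). The size moved little between these fits, from -1.89 to -1.91. Against Nestin-creERT2, the Synapsin-cre difference was -1.10 ± 0.38 (95% interval -1.97 to -0.24, edgeR adjusted p = 0.383), and -1.48 ± 0.35 without Synapsin-cre replicate 1 (edgeR adjusted p = 0.0673). These comparisons share the Nestin-creERT2 libraries. Between Synapsin-cre and NG2-creERTM the difference was 0.80 ± 0.38 (95% interval -0.06 to 1.66, edgeR adjusted p = 0.415). The test for any difference among the 3 models gave Lhx2 an edgeR adjusted p of 0.253 with all libraries and of 0.0374 without Synapsin-cre replicate 1, where 1.87% of genes tested were called.

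Marker lists also differed between NG2-creERTM and Nestin-creERT2. Of 16 lists, the summed level of 5 was lower in all NG2-creERTM than in all Nestin-creERT2 samples, that of 3 was higher and 8 overlapped. The 10 astrocyte markers summed to 4692 to 6800 CPM in the Nestin-creERT2 samples and to 1316 to 3695 CPM in the NG2-creERTM samples, and all 10 were above the floor in every library. The pan-neuronal sums were 1611 to 2031 and 493 to 816 CPM, with all 12 markers above the floor throughout, and those of cortical excitatory neurons 164 to 305 and 23.9 to 80.4 CPM. Cerebellar and olfactory bulb markers were the other 2 lists whose sums were lower. The olfactory bulb difference rested on Calb2, at 11.4 to 42.9 CPM in Nestin-creERT2 and 1.2 to 3.74 CPM in NG2-creERTM, while its other markers overlapped. On the cerebellar list Cbln1, Neurod1 and Calb1 were lower in NG2-creERTM, Cbln3 was higher, and Zic1 and Car8 overlapped. Gabra6, Pcp2, Fat2 and Barhl1 had at most 6 counts in any sample of these models. These 5 lists did not follow Lhx2 in Synapsin-cre replicate 1. Its Lhx2, at 25.1 CPM, was below every Nestin-creERT2 sample, while its sums of all 5 were above them. Astrocyte markers summed to 8214 CPM there and pan-neuronal markers to 5723 CPM. The fibroblast and meningeal sums ran the other way, at 28.9 to 74.6 and 454 to 967 CPM, as did those of Schwann cells and neural crest (159 to 757 and 1535 to 5276 CPM) and of oligodendrocytes (472 to 1493 and 1930 to 5572 CPM). Their part in the Lhx2 difference was not tested. NG2-creERTM replicate 2, the library of that model with Xist, had Lhx2 at 11.6 CPM, and replicates 1 and 3 had 9.70 and 8.43 CPM. The part of sex in the Lhx2 difference was not tested.

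**Figure D2:**
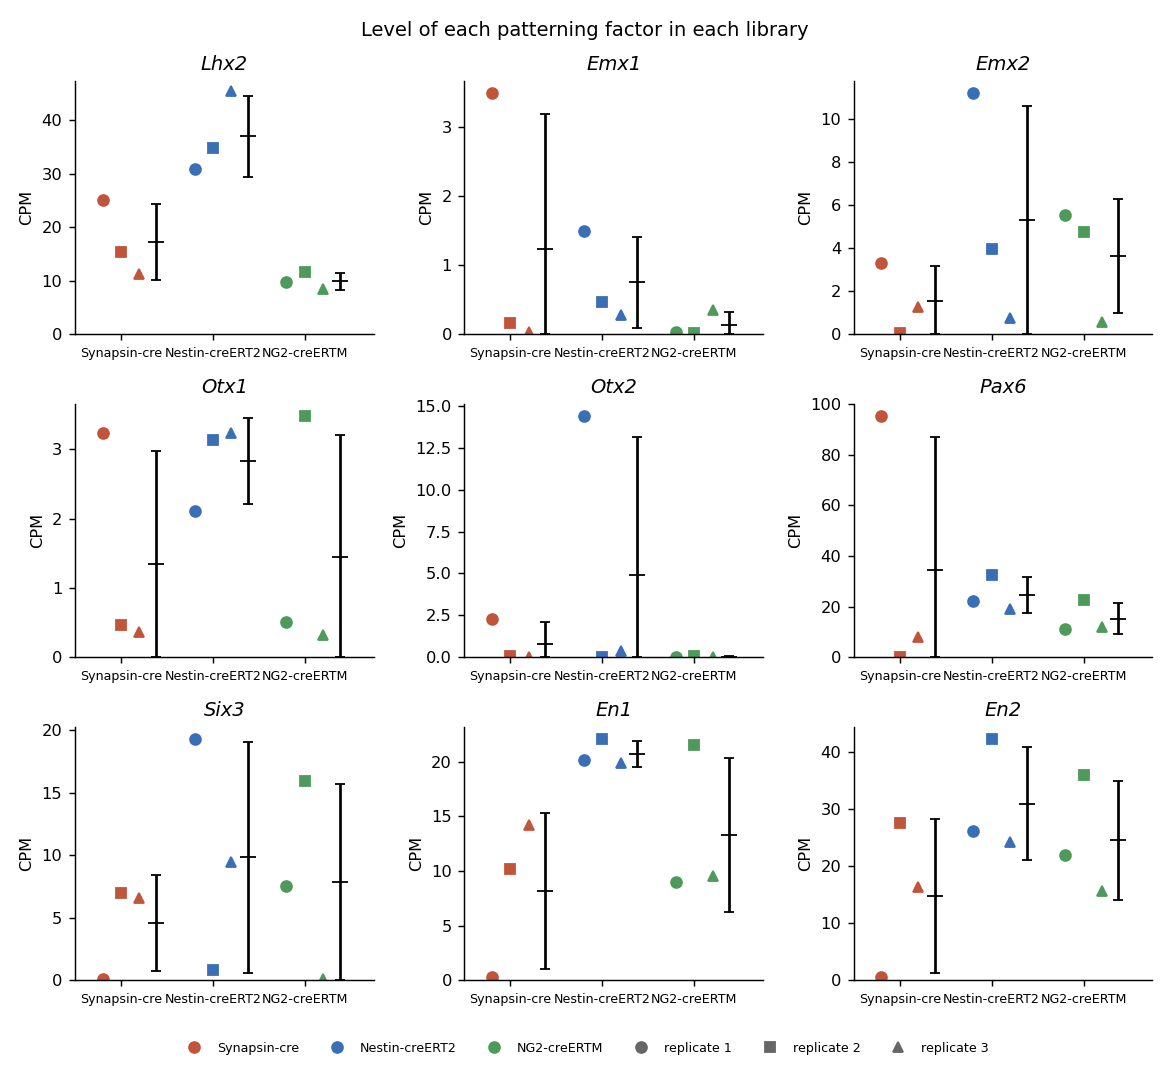
CPM of each member in each library, by model (colour) and replicate (symbol), with the mean and SD of the 3 samples beside them in black (lower bars end at 0). Lhx2 is the gene whose Nestin-creERT2 points, 30.9 to 45.5 CPM, all lie above the other 6, while Pax6, En1 and En2 are set apart by Synapsin-cre replicate 1.

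Pax6, a paired-box factor of cortical progenitors, eye and olfactory bulb interneurons, had the widest span in plain CPM among the members, while Otx2 and Six3 had a larger SD on the log2 scale. Its level was 95.3 CPM in Synapsin-cre replicate 1, 0.165 CPM (6 counts) in replicate 2 and 8.17 CPM in replicate 3. The Nestin-creERT2 samples held 22.2, 32.6 and 19.2 CPM and the NG2-creERTM samples 11.3, 22.6 and 12.1 CPM. The highest and the lowest of all 9 libraries were thus both Synapsin-cre samples, and the 6 libraries of the other models lay within 11.3 to 32.6 CPM. The Synapsin-cre mean of 34.5 ± 52.7 CPM (SD, n = 3) describes none of its samples. The log2 fold change against Nestin-creERT2 was 0.49 (95% interval -2.53 to 3.50, edgeR adjusted p = 0.927) and turned to -2.59 without Synapsin-cre replicate 1. NG2-creERTM against Nestin-creERT2 gave -0.69 (95% interval -3.71 to 2.33, edgeR adjusted p = 0.889).

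In the library with most Pax6, genes of olfactory bulb neurons were also high. The 6 markers on that list summed to 1460 CPM there and to 2.67 to 45.1 CPM in the others, with Th, the enzyme that makes the dopamine precursor, at 272 CPM against at most 1.66 and Eomes, a marker of mitral and tufted cells, at 141 CPM against at most 1.04. Dlx1, a factor of forebrain interneurons, stood at 345 CPM against at most 25.4 CPM, and Meis2 at 669 CPM against at most 90.3. All 6 olfactory markers were above the floor in that library. Their part in the Pax6 level was not tested. Synapsin-cre replicate 1 had the highest of 9 values for Pax6 and Emx1, as it did for 25.0% of all genes tested.

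Pax6 and Lhx2, which share the cortical progenitor, did not keep a fixed proportion. Per kilobase, Lhx2 was 1.37 to 6.33 times Pax6 in 7 libraries, 0.7 times in Synapsin-cre replicate 1 and 248 times in Synapsin-cre replicate 2.

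En1 and En2, the engrailed genes of midbrain and anterior hindbrain, were low in Synapsin-cre replicate 1 and close to even elsewhere. En1 stood at 0.265 CPM (6 counts) in that library and at 10.2 and 14.2 CPM in the other Synapsin-cre samples. In Nestin-creERT2 it stood at 20.2, 22.1 and 19.9 CPM, and in NG2-creERTM at 9.02, 21.5 and 9.50 CPM. The 3 Nestin-creERT2 values lay close together and above all Synapsin-cre values, and NG2-creERTM replicate 2 lay among them. En2 stood at 0.574 CPM (13 counts) in Synapsin-cre replicate 1, then at 27.5 and 16.3 CPM, with 26.1, 42.3 and 24.2 CPM in the Nestin-creERT2 samples and 22.0, 36.0 and 15.6 CPM in those of NG2-creERTM. Its 3 models overlapped. For both genes Synapsin-cre replicate 1 was the lowest of 9 libraries, as it was for 22.8% of all genes tested.

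Without that library En1 spanned 2.45-fold and En2 2.71-fold from lowest to highest, the narrowest ranges of the 9 genes, against 5.4-fold for Lhx2, 135-fold for Emx2, 194-fold for Six3 and 197-fold for Pax6. The SD of log2 CPM over those 8 libraries was 0.56 for En1 and 0.50 for En2, below the median of 0.60 over all genes tested. With all 9 libraries it was 1.92 and 1.83, above that of 93.6% and 92.6% of genes. Per kilobase, En2 was 0.856 to 2.01 times En1. The pair moved together over 9 libraries (Pearson r 0.97, Spearman rho 0.83 of log2 CPM) and less closely over the 8 without Synapsin-cre replicate 1 (0.64 and 0.76). No 50-base stretch of the exons of either gene occurred in another annotated gene, so the pair does not share reads of that length.

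For En1 the log2 fold change of Synapsin-cre against Nestin-creERT2 was -1.34 (95% interval -3.52 to 0.85, edgeR adjusted p = 0.660), and -0.78 without Synapsin-cre replicate 1. For En2 it was -1.06 (95% interval -3.18 to 1.07, edgeR adjusted p = 0.724), and -0.50 without that library. NG2-creERTM against Nestin-creERT2 gave -0.63 for En1 (95% interval -2.79 to 1.52) and -0.33 for En2 (95% interval -2.44 to 1.77), with edgeR adjusted p of 0.846 and 0.928. En1 is also a marker of midbrain dopaminergic neurons. The 7 other markers on that list summed to 13.2 to 51.6 CPM in the 8 libraries where En1 was read at 9.02 CPM or more, and to 337 CPM in Synapsin-cre replicate 1, of which Th gave 272. Slc6a3, the dopamine transporter, was at 20.9 CPM in that library and at 0.0551 to 1.40 CPM in the rest. Slc18a2 was at 11.3 CPM there and at most 1.26 CPM elsewhere. The remaining markers on the list did not follow. Pitx3 and Foxa1 had 0 counts in that library. Ddc was at 12.9 CPM there and 12.2 CPM in NG2-creERTM replicate 1, and Nr4a2 at 19.3 CPM there and 46 CPM in Synapsin-cre replicate 3. Th is also on the olfactory bulb list. Cerebellar granule and Purkinje markers summed to 19.4 to 57.1 CPM in those 8 libraries and 237 CPM in Synapsin-cre replicate 1. Of the 237 CPM, Zic1 gave 134 and Cbln1 64.2. Gabra6, which defines granule cells, had at most 0.0300 CPM in any library. This contrast rests on 1 library, and the part of such neurons in the En levels was not tested.

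**Figure D3:**
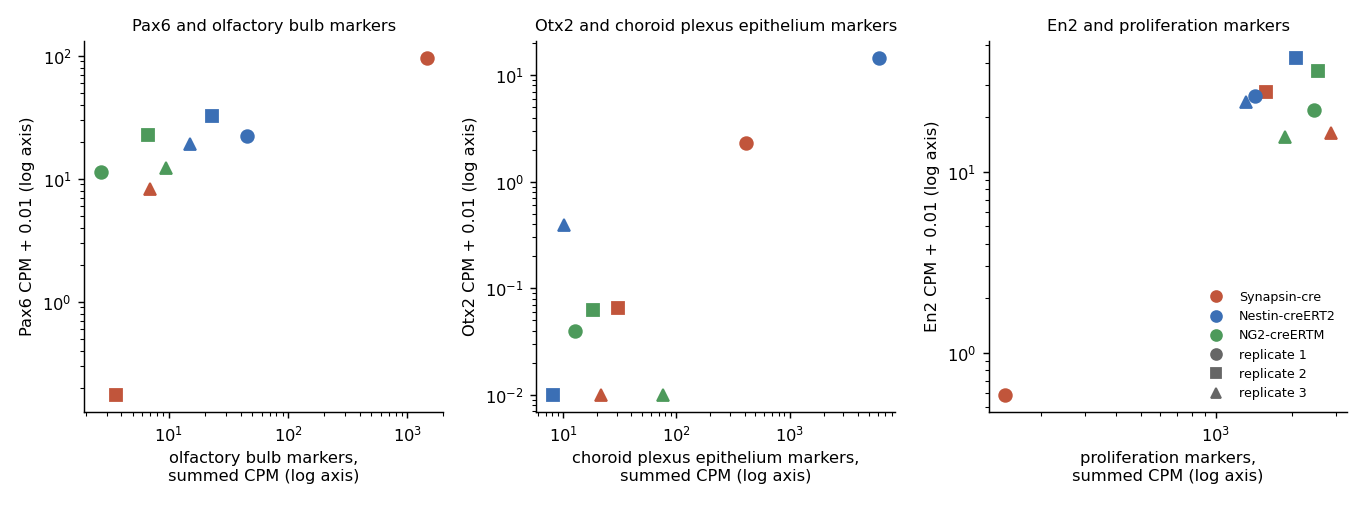
CPM of Pax6, Otx2 and En2 (with 0.01 added, log axis) against the summed CPM of olfactory bulb, choroid plexus and proliferation markers (log axis), 1 point for each library. Synapsin-cre replicate 1 sits alone at 95.3 CPM of Pax6 and at 0.574 CPM of En2, and Nestin-creERT2 replicate 1 alone at 14.4 CPM of Otx2.

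Six3, the most anterior of the forebrain factors, was either clearly read or nearly absent in samples of the same model. In Synapsin-cre it stood at 0.133 CPM (3 counts), 6.95 and 6.61 CPM. In the samples of Nestin-creERT2 it stood at 19.3, 0.775 and 9.45 CPM, and in NG2-creERTM at 7.55, 15.9 and 0.0992 CPM (4 counts). Each model held 1 low library and 2 at 6.61 CPM or more, and the models overlapped throughout. Model accounted for 5.22% of the variance of its log2 CPM, the lowest value among the members. The log2 fold change was -1.10 for Synapsin-cre against Nestin-creERT2 (95% interval -4.69 to 2.48), -0.33 for NG2-creERTM against Nestin-creERT2 (95% interval -3.87 to 3.22) and -0.78 for Synapsin-cre against NG2-creERTM (95% interval -4.34 to 2.79), with edgeR adjusted p from 0.843 to 0.959.

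Emx2, a homeobox factor of dorsal forebrain, varied in a similar way. Its level was 3.31, 0.0827 (3 counts) and 1.29 CPM in Synapsin-cre, 11.2, 3.96 and 0.762 CPM in Nestin-creERT2, and 5.54, 4.73 and 0.595 CPM in NG2-creERTM. All models overlapped. The log2 fold change was -1.76 for Synapsin-cre against Nestin-creERT2 (95% interval -4.69 to 1.16, edgeR adjusted p = 0.664) and -0.55 for NG2-creERTM against Nestin-creERT2 (95% interval -3.39 to 2.29, edgeR adjusted p = 0.910). Its paralog Emx1, which marks cortical excitatory neurons and their progenitors, was lower in most samples. Emx1 gave 79, 6 and 1 counts in Synapsin-cre, 51, 17 and 12 in Nestin-creERT2, and 1, 1 and 14 in NG2-creERTM, which is 3.49 CPM at the highest and 0.0261 CPM at the lowest. In the 5 libraries where both Emx genes were above the floor, Emx2 was 0.691 to 6.12 times Emx1 per kilobase. Synapsin-cre replicate 1 was the library of these with more Emx1 than Emx2, and there the 7 other cortical excitatory markers summed to 1274 CPM, against 13.0 to 305 CPM elsewhere. Nestin-creERT2 replicate 1, second highest in Emx1, had the 305 CPM. The part of such neurons in the Emx1 level was not tested.

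Otx1 and Otx2, the orthodenticle genes of forebrain and midbrain, were at opposite ends in breadth. Otx1 was low but present in every library, at 3.23, 0.469 and 0.361 CPM in Synapsin-cre, 2.11, 3.13 and 3.24 CPM in Nestin-creERT2, and 0.509, 3.48 and 0.322 CPM in NG2-creERTM. It lay at 2.11 to 3.48 CPM in 5 libraries, among them all 3 of Nestin-creERT2, and at 0.322 to 0.509 CPM in the other 4. The log2 fold change against Nestin-creERT2 was -1.07 for Synapsin-cre (95% interval -3.50 to 1.35, edgeR adjusted p = 0.762) and -0.97 for NG2-creERTM (95% interval -3.38 to 1.43, edgeR adjusted p = 0.783).

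Otx2 gave 491 counts (14.4 CPM) in Nestin-creERT2 replicate 1, 52 counts (2.30 CPM) in Synapsin-cre replicate 1 and 16 counts (0.381 CPM) in Nestin-creERT2 replicate 3. The remaining 6 libraries had 0 to 2 counts each, including all 3 of NG2-creERTM (1, 2 and 0 counts). No fold change is given against that model for this gene. In these 6 libraries Otx2 was not detectable above the floor at this depth. Otx2 is also known from choroid plexus epithelium, and the library with most Otx2 was the one highest in that list. The 9 other markers summed to 6176 CPM there, all above the floor, with Ttr at 5690 CPM, Kl at 141 CPM and Folr1 at 41.8 CPM. In the other libraries the sum was 8.06 to 415 CPM, and the 415 CPM of Synapsin-cre replicate 1 held 407 CPM of Aqp1 with Folr1 at 0.133 CPM and Ttr at 1.33 CPM. The part of choroid plexus in the Otx2 level was not tested. Crx, the third gene of the family, had at most 0.0551 CPM in any library.

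Across the set, members were mostly lower in the other models than in Nestin-creERT2, without passing the test. In NG2-creERTM against Nestin-creERT2 the fitted log2 fold change was negative for 9 of 9 members. The median was -0.69 against 0.02 over all genes, of which 49.1% were negative. Otx2 is among the 9 although it was under the floor in every NG2-creERTM library. Without NG2-creERTM replicate 2 the median was -1.36. Without NG2-creERTM replicate 3 the fold change was negative for 8, and without Nestin-creERT2 replicate 1 for 7. In Synapsin-cre against Nestin-creERT2 it was negative for 7 of 9, with a median of -1.10 against 0.13, and Emx1 and Pax6 were the exceptions. Both turned negative without Synapsin-cre replicate 1, when the median was -2.59 against 0.01. Between Synapsin-cre and NG2-creERTM 5 were negative and 4 positive, with a median of -0.10 against 0.08. That sign turned with single libraries left out, to a median of 0.92 with 3 negative and 6 positive without NG2-creERTM replicate 2, and to medians of 0.24 and 0.28 without Synapsin-cre replicates 2 and 3. With Otx2 at its bound, taken at 3 counts in each NG2-creERTM library, the medians against that model were unchanged.

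The edgeR fit of all 9 libraries called 0 of 9 members in each comparison and in the test over the 3 models, and 0% of all genes. At an unadjusted p under 0.05 it gave Lhx2 in Synapsin-cre against Nestin-creERT2 (10.8% of all genes). It gave Lhx2 and Otx2 in NG2-creERTM against Nestin-creERT2 (11.3%) and no member in Synapsin-cre against NG2-creERTM (12.8%). The Otx2 value rested on 491 counts in Nestin-creERT2 replicate 1, as replicates 2 and 3 held 0 and 16 counts. For the same comparison limma voom gave Otx2 an unadjusted p of 0.213. DESeq2, which gave an adjusted p to 8 members and none to Otx2, called Lhx2 in NG2-creERTM against Nestin-creERT2, where 3.81% of genes were called, and over the 3 models, where 868 of 17351 genes were (5%). It called no member in the other comparisons (3.10% of genes for Synapsin-cre against Nestin-creERT2 and 2.52% for Synapsin-cre against NG2-creERTM). The fits of 2 models called 0.0291% of genes for Synapsin-cre against Nestin-creERT2 and 0% for Synapsin-cre against NG2-creERTM, with no member among them. The 3 samples of each model did not overlap for Lhx2 and En1 in Synapsin-cre against Nestin-creERT2 (14.7% of all genes), for Lhx2 in NG2-creERTM against Nestin-creERT2 (25.2%) and for no member in Synapsin-cre against NG2-creERTM (13.8%).

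**Figure D4:**
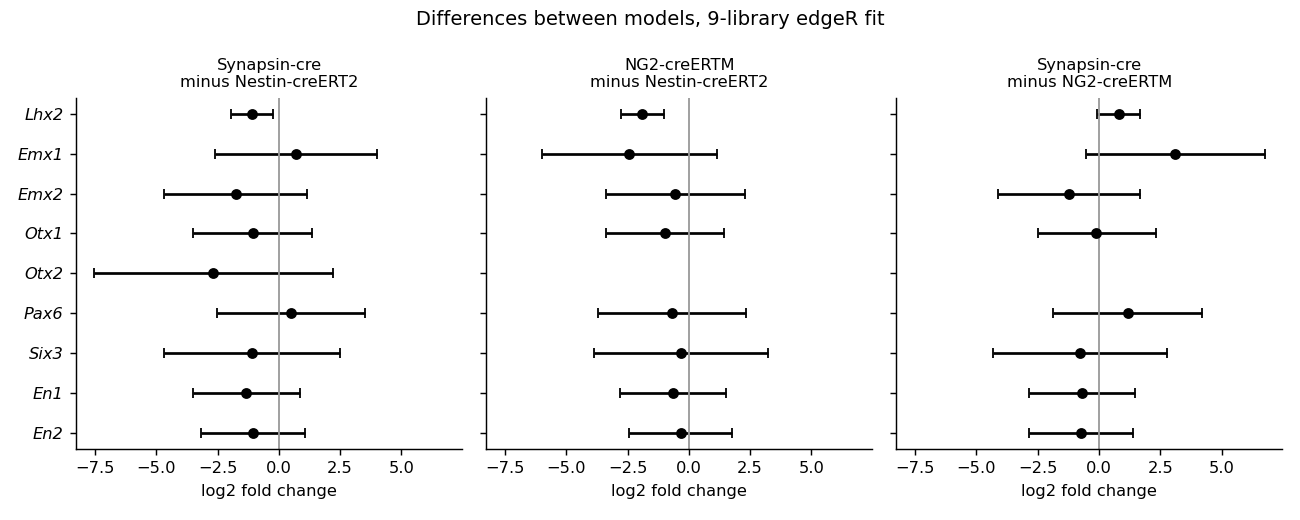
Log2 fold change of each member in the 3 comparisons, from the edgeR fit of all 9 libraries, with 95% intervals. Points left of 0 are lower in the model named first. Otx2 is drawn for Synapsin-cre against Nestin-creERT2 only, since NG2-creERTM held 0 to 2 counts a library. The Lhx2 intervals, -1.97 to -0.24 and -2.78 to -1.02 against Nestin-creERT2, are the ones that lie wholly below 0.

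The spread within models was wide for most members. The pooled SD of log2 CPM around the model means was 3.02 for Six3, 2.87 for Otx2 and 2.57 for Pax6, each above that of at least 98.7% of genes tested, and 2.02 for Emx2, 1.89 for Emx1 and 1.38 for Otx1, against a median of 0.63 over all genes. For Lhx2 it was 0.40, above that of 22% of genes. Without Synapsin-cre replicate 1 it was below the median of 0.51 for Lhx2 and En1 (0.27 and 0.47), stood at 0.53 for En2 and stayed between 1.11 and 2.72 for the other 6. With all 9 libraries Lhx2 was the member with most of its variance between models. Without Synapsin-cre replicate 1 the share between models was 93.9% for Lhx2, 60.7% for Pax6, 58.7% for Otx1 and 57.4% for Emx1, against a median of 41% over all genes.

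Of the RNAs transcribed from the opposite strand beside members, those of Emx2 and Six3 followed their neighbours most closely. Emx2os begins within Emx2 on the other strand, shares 264 bases of it and was counted at 3 to 165 reads a library. Over the 9 libraries its log2 CPM had a Pearson r of 0.98 and a Spearman rho of 0.88 with Emx2. Six3os1 had 631 counts in all and an r of 0.96 (rho 0.87) with Six3, with 0, 4 and 2 counts in the libraries where Six3 was lowest in each model. Gm28528, also opposite Six3, had 59 counts (r 0.85, rho 0.61). Otx2os1 gave 27 of its 31 counts in Nestin-creERT2 replicate 1, the library highest in Otx2, and Pax6os1 gave 26 of its 32 in Synapsin-cre replicate 1, the library highest in Pax6, with an r of 0.92 (rho 0.64) for Otx2os1 and 0.54 (rho 0.63) for Pax6os1. Gm27197, opposite Lhx2, had 22 counts, 9 of them in Synapsin-cre replicate 2 and 2 to 3 in each Nestin-creERT2 library, where Lhx2 was highest. Gm13584, also opposite Lhx2, and Gm43610, opposite En2, had 0 counts. These correlations describe 9 libraries that also share depth and model. Over all genes, 3.25 to 3.64% of reads lay on the strand not counted. Pax6os1 came to 1.19% of the counts of its pair in Synapsin-cre replicate 1 and Otx2os1 to 5.21% of its pair in Nestin-creERT2 replicate 1, and the part of such reads in these counts was not tested. Emx2os came to 24.7 to 45.7% of its pair in the 8 libraries where it was above the floor.

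**Figure D5:**
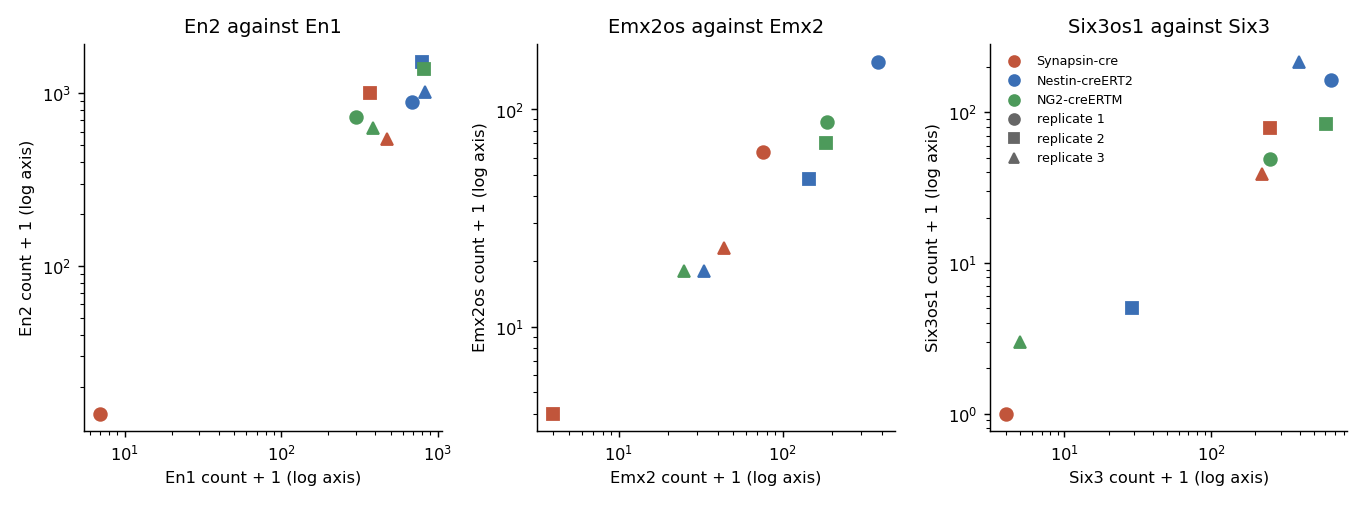
Counts (with 1 added, log axes) of En2 against En1, Emx2os against Emx2 and Six3os1 against Six3, 1 point for each library. En1 and En2 form a group of 8 libraries with Synapsin-cre replicate 1 far below, while the Emx2 and Six3 pairs spread along the whole range.

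Some pairs of members varied together across libraries. Of 36 pairs, 7 had a Pearson r of at least 0.7 over the 9 libraries or over the 8 without Synapsin-cre replicate 1, and they are given as descriptions. En1 with En2 is given above. Over the 8 libraries Otx1 had an r of 0.91 with En1 and 0.78 with En2 (rho 0.71 for both), and -0.09 and -0.14 with that library included. Lhx2 with En1 went from 0.71 over 8 libraries to -0.00 over 9. Emx2 had an r of 0.75 with Pax6 over 9 libraries and 0.78 over 8, and Lhx2 of 0.74 with Otx1 over 9 and 0.73 over 8. Emx1 and Otx2, above the floor in 6 and 3 libraries, had an r of 0.75 over 9 and 0.68 over 8, with a rho of 0.39 and 0.15.

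The protein-coding genes whose log2 CPM over the 9 libraries was most like a member, of 13656 compared, were Tmem44, Zhx3 and Cst3 for Lhx2 (Pearson r 0.98, 0.96 and 0.96). For Lhx2 Tmem44 stayed first without Synapsin-cre replicate 1, at 0.99. Cst3 encodes cystatin C, a secreted protease inhibitor. For En1 they were Peg12, Spc25 and Ccne1 (0.98 each), and without that library the values were 0.72, 0.64 and 0.78. Spc25 is a kinetochore protein and Ccne1 is cyclin E1, and the proliferation markers were lowest in the same library. For En2 they were En1, Tbcb and Spc25 (0.97, 0.96 and 0.95), and without that library 0.64, 0.31 and 0.22. For Six3 they were Fam8a1, Ubqln1 and Rufy4 (0.96, 0.95 and 0.94), and for Pax6 Sacm1l, Tlr2 and Camk1g (0.97, 0.96 and 0.96). Emx2 was matched by Aldh2, Myo1e and Bmp2k (0.92, 0.92 and 0.91), Otx1 by Ccpg1os, Kcnn3 and Pip5k1b (0.96, 0.96 and 0.94), and Otx2 by Slc10a4, Pcdhgb5 and Cfap65 (0.96, 0.95 and 0.94). For these 5 genes the values without that library were 0.91 to 0.97. Emx1, with a mean under 1 CPM, was left out.

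Other regional genes gave the setting of these levels. Of 113 listed genes beyond the members, 83 were tested, and the edgeR fit of 9 libraries and the fits of 2 models called 0 of them in every comparison. Of 31 forebrain genes 22 were tested. In Synapsin-cre against Nestin-creERT2, 16 were positive and 6 negative, with a median of 0.95 against 0.13 over all genes. This median was not computed without Synapsin-cre replicate 1. Of the 22, 4 were at an unadjusted p under 0.05 (10.8% of all genes). In NG2-creERTM against Nestin-creERT2, 8 were positive and 14 negative, with a median of -0.44 against 0.02. There 4 were at an unadjusted p under 0.05 (11.3% of all genes). Gsx1, a factor of ventral forebrain progenitors, was at 5.67, 50.4 and 92.4 CPM in Nestin-creERT2, at most 37.7 CPM in NG2-creERTM and 0.707, 9.62 and 12.7 CPM in Synapsin-cre. Nr2f1, which patterns caudal cortex, was at 40.2 to 178 CPM.

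Of the 21 midbrain and isthmus genes, 15 were tested, with medians of 0.11 in Synapsin-cre and 0.23 in NG2-creERTM against Nestin-creERT2. At an unadjusted p under 0.05 there were 6 and 3 genes (10.8% and 11.3% of all genes). The isthmic signals Fgf8 and Wnt1 gave 32 and 36 counts over all 9 libraries, above the floor in 2 libraries each, and Pax2, Pax5 and Pax8, which work with the En genes at the isthmus, reached at most 2.09, 2.67 and 0.863 CPM. Gbx2, which sets the hindbrain side of the isthmus, was above the floor in all 9 libraries, at 0.309 to 41.9 CPM and highest in Nestin-creERT2 replicate 3. The FGF feedback inhibitors Spry1 and Spry2 were at 68.6 to 154 CPM and 54.8 to 165 CPM in 8 libraries, with Synapsin-cre replicate 1 lowest at 16.1 and 38.2 CPM. Lmx1b, a factor of isthmus and midbrain, was at 0.548 to 22.9 CPM, highest in Synapsin-cre replicate 2, and Nr4a2, a dopaminergic factor, at 5.29 to 46.0 CPM.

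Of the 26 hindbrain and cerebellar genes 18 were tested. Medians against Nestin-creERT2 were 1.42 in Synapsin-cre and 0.23 in NG2-creERTM, beside 0.13 and 0.02 over all genes. At an unadjusted p under 0.05 there were 3 and 1 (10.8% and 11.3% of all genes). Meis2, Pbx3 and Meis1 had the highest means on the list, and Meis2 and Pbx3 were highest in Synapsin-cre replicate 1 at 669 and 215 CPM. In the other Synapsin-cre samples Meis2 was at 41.6 and 21.9 CPM, against 38.2 to 90.3 CPM in Nestin-creERT2. Pbx3 was at 17.8 and 10.1 CPM in them, against 9.37 to 14.4 CPM. The median of the list without Synapsin-cre replicate 1 was not computed. Hoxb1 had 0 counts and Hoxb2 1, whereas Hoxa2 and Hoxa3 reached 10.9 and 34.7 CPM. Atoh1 and Ptf1a, which found the cerebellar excitatory and inhibitory lineages, gave 4 and 6 counts over all libraries.

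Of 21 genes of the same homeobox families 13 were tested. In these comparisons 1 and 3 were at an unadjusted p under 0.05 (10.8% and 11.3% of all genes). Six4 (0.884 to 36.6 CPM) and Six2 (0.249 to 31.7 CPM), relatives of Six3, were highest in Synapsin-cre replicate 2. Pax7 and Pax9 were each high in 1 library, Pax7 at 20.7 CPM in NG2-creERTM replicate 2 and Pax9 at 22.5 CPM in Nestin-creERT2 replicate 2. All 19 partners and targets were tested and none was called in the edgeR fit of 9 libraries, with medians of 0.01 and 0.30 against Nestin-creERT2. At an unadjusted p under 0.05 there were 5 and 2, beside the same shares of all genes. Of these, Sox2, a neural stem cell factor that acts with Pax6 and Otx2, was at 49.5 CPM in Synapsin-cre replicate 1 and at 136 to 577 CPM in the others, and Ldb1, the cofactor through which Lhx2 acts, stayed within 67.2 to 168 CPM. Among the genes of these lists that DESeq2 called, Gbx2 was lower in Synapsin-cre and Tle1 higher in NG2-creERTM than in Nestin-creERT2.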

How the data were processed

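Bulk RNA sequencing counts of 9 libraries were used. Per the submitters' processing notes, STAR, HTSeq and the mouse build mm10 were used, with versions, annotation and read strand not given in the sources used here. The authors deposited whole-number read counts per gene, in an unstranded column and 1 column for each strand. The strand that held most reads was taken here. Symbols and exon lengths came from GENCODE vM21 on GRCm38, which matched 46005 of 46517 identifiers. After filterByExpr and TMM scaling, the 3 models were fitted together on all 9 libraries in edgeR (version 4.0.16, under R 4.3.3), whose quasi-likelihood test was used 2-sided with Benjamini-Hochberg adjustment over 17947 genes and a threshold of 0.05. CPM are counts over TMM-scaled library totals, and log2 CPM for correlations had a prior count of 2. For RNAs on the opposite strand, Pearson r used log2 of CPM with 0.05 added instead. Intervals are 95% intervals from the fit's t distribution. Counts were taken as not detected at 3 or fewer.

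Alternatives were other size factors (RLE, upper quartile), other filters (1 CPM or more in at least 3 libraries, or none), voom of limma 3.58.1, plain or with sample quality weights, DESeq2 1.42.0, unstranded counts, fits of 2 models, such fits without Synapsin-cre replicate 1, and each library left out in turn. Named genes were all members, RNAs on the opposite strand within 5 kb, wider regional genes called in a fit or highest in mean CPM (up to 4 a list), and the 3 most correlated protein-coding genes of at least 1 CPM. Other genes named from the lists were chosen after their values were seen. Some genes that this rule or an alternative fit picks out, among them 1 of the wider lists called in an edgeR fit without Synapsin-cre replicate 1, are not reported here. The members and lists were chosen with earlier results of these data known. On simulated data with 100 genes planted at each size, edgeR recovered 21, 22 and 10 of the 4-fold and 82, 78 and 76 of the 16-fold changes in Synapsin-cre against Nestin-creERT2, NG2-creERTM against Nestin-creERT2 and Synapsin-cre against NG2-creERTM, over 17640, 17610 and 17621 genes.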

Additional observations from a re-analysis of the deposited data

How the results depend on the processing

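The count of calls depended on the tool and on Synapsin-cre replicate 1. The 9-library edgeR fit called 0 genes in each comparison, and leaving out 1 library gave 0 to 273 genes for Synapsin-cre against Nestin-creERT2, 0 to 124 for NG2-creERTM against Nestin-creERT2, 0 to 1 for Synapsin-cre against NG2-creERTM and 0 to 346 over the 3 models, the highest each time without that library, with 0 to 1 member (Lhx2) in the second and the last. In the same order of pairs, DESeq2 called 506, 621 and 438 genes and 868 over the 3 models. It called 1 member in NG2-creERTM against Nestin-creERT2 and 1 over the 3 models, and 2, 2, 1 and 1 wider regional genes. Voom with quality weights called 266 and 160 genes against Nestin-creERT2, 1 member among the latter, and no filter 12, 12 and, over the 3 models, 23. Fits of 2 models called 5 and 237 genes, 1 member among the latter, and without Synapsin-cre replicate 1 they called 431 genes, 1 of them wider regional, against Nestin-creERT2 and 1 gene against NG2-creERTM. Unstranded counts called 1 gene for Synapsin-cre against Nestin-creERT2. The cause of these differences was not tested.

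Directions turned for members that did not pass. For Synapsin-cre against Nestin-creERT2, voom, voom with weights and the 2-model fit without Synapsin-cre replicate 1 gave Emx1 -1.10, -1.85 and -2.88 and Pax6 -2.42, -5.11 and -2.58, and voom with weights gave Six3 0.10. Against NG2-creERTM the same 3 gave Pax6 -1.72, -4.37 and -1.90, and voom with weights gave Six3 1.58. With 1 library left out, the Synapsin-cre differences from Nestin-creERT2 ran from -2.89 to 1.59 for Emx1, -7.29 to 1.90 for Otx2 and -2.59 to 0.98 for Pax6. Those of NG2-creERTM from Nestin-creERT2 ran from -1.06 to 0.61 for Emx2 and -1.36 to 0.61 for Six3. Those of Synapsin-cre from NG2-creERTM ran from -0.46 to 5.26 for Emx1, -1.77 to 1.67 for Otx1, -1.89 to 1.68 for Pax6 and -1.36 to 0.26 for Six3. The mean CPM of every member moved by less than 1 SD under RLE factors, plain totals and unstranded counts. With 1 library left out, the lowest means were 4.17 CPM for Pax6 in Synapsin-cre (34.5 with all), 0.19 for Otx2 in Nestin-creERT2 (4.93) and 0.0977 for Emx1 in Synapsin-cre (1.23). Of the 3 genes most like each member, ranking by Spearman or without Synapsin-cre replicate 1 changed at least 2 in 15 of 16 cases. Otx2 and Emx1 rest on 17 or fewer counts in 7 of 9 libraries each. No paired analysis was possible because the labels give no replicate number shared between models.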
